A study of Mus musculus with 6 samples.

Results

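The integrated stress response was examined through 10 genes, *Atf4*, *Asns*, *Trib3*, *Ddit3*, *Chac1*, *Psat1*, *Phgdh*, *Sesn2*, *Ddit4* and *Atf3*, out of 32245 gene symbols measured in single cells of the mouse jejunal epithelium. The genes were chosen by symbol, and all 10 were found among the deposited features, with *Ddit3* listed under a second gene ID that held 0 UMIs. Adult male wild-type C57BL/6J mice of about 30 weeks had received a low-fat diet (LFD) or a high-fat diet (HFD) for 16 weeks before surgery. The surgery was vertical sleeve gastrectomy (VSG), a removal of most of the stomach, or a sham operation. The mice then returned to the same diet and were examined 5 weeks after the operation, after an overnight fast. The 3 groups were LFD sham (3 mice pooled), HFD sham (3 mice pooled) and HFD VSG (2 mice pooled), and each gave 1 crypt-labelled and 1 villus-labelled library. LFD sham mice differed from HFD sham mice in diet, and HFD VSG mice differed from HFD sham mice in the operation. No library had a replicate, so no difference could be set against the spread between mice or between preparations, and no test was made.

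Cells that lack amino acids, accumulate unfolded protein in the endoplasmic reticulum, lack heme or sense double-stranded RNA phosphorylate the translation factor eIF2. Bulk protein synthesis then slows, while the upstream open reading frames of the *Atf4* messenger let more ATF4 protein be made. ATF4 binds DNA as a dimer with C/EBP proteins or other partners and turns on genes for amino acid synthesis, amino acid import, tRNA charging and redox balance, and together with CHOP (encoded by *Ddit3*) it also turns on genes that feed back on the response or lead to cell death. The step from eIF2 to ATF4 is one of translation, and RNA counts do not measure it. In the intestine, enterocytes face changing amino acid supply from the lumen, and goblet and Paneth cells fold large amounts of secreted protein.

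The called barcodes of a library held between 60522766 and 155522445 unique molecular identifiers (UMIs, 1 per captured molecule), and between 2958 and 4709 cells per library passed the filters. The number of cell barcodes shared by 2 libraries lay between 2 and 11, at most 0.293% of the smaller library. Clusters were named from marker genes, and levels are given as the UMIs of a gene in all cells of 1 class and library, scaled to a total of 1000000 UMIs of that class and library (CPM). The summed Paneth markers took 612030 to 675470 CPM of the Paneth-like cells, so all other genes shared the rest there. On this scale a Paneth-like value is therefore lowered beside other classes and beside free RNA. The crypt and villus labels went against the markers. Stem-like cells made up 1.24% to 3.00% of the epithelial cells of the crypt-labelled libraries and 2.96% to 11.5% of those of the villus-labelled ones, Paneth-like cells 0.777% to 1.52% and 1.19% to 5.79%, and enterocyte-like cells 63.6% to 70.0% and 40.1% to 52.2%. The libraries are therefore called crypt-labelled and villus-labelled, and the classes carry the results. Classes with fewer than 20 cells in a library were left out there, which removed the tuft-like cells of the HFD sham crypts (13 cells) and the immune-like cells of the HFD sham villi (5 cells). The HFD VSG villi were the deepest library, with a median of 30176 UMIs in passing cells beside 8409 to 16403 in the others. Genes listed as a sign of damaged droplets (*Gm42418*, *Gm26917*, *Lars2*, *AY036118*) took 59748, 49138 and 14290 CPM of the enterocyte-like cells of the crypts and 59758, 35373 and 8875 CPM of those of the villi, the least in HFD VSG. The HFD sham libraries stood apart in free RNA, since the fraction stated in the study's methods was higher in both of them than in the other four. Of the UMIs of the HFD sham crypts 55.7% lay in called barcodes, beside 64.7% to 83.7% in the other libraries. By that share the HFD sham villi, at 74.3%, did not stand apart. With those fractions subtracted, the *Atf3* ratio to HFD sham in the villi turned to -1.18 in stem-like and -1.46 in cycling progenitor-like cells. The early progenitor-like cluster was also led by *Ube2c*, *Cdca3*, *Cenpf* and *Hmgb2*, genes of dividing cells, so the class also holds dividing cells.

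The genes are protein-coding and lie apart on the GRCm38 genome (GENCODE annotation, positions of the whole gene with its exons and introns). *Atf4* lies at chr15:80255184-80257541 on the plus strand, *Asns* at chr6:7675169-7693254 on the minus strand, *Psat1* at chr19:15904678-15947337 on the minus strand and *Phgdh* at chr3:98313170-98339990 on the minus strand. *Trib3* lies at chr2:152337422-152344032 on the minus strand and *Chac1* at chr2:119351229-119354381 on the plus strand. *Ddit3* lies at chr10:127290774-127296288 on the plus strand, where its 3′ end meets that of *Mars* on the opposite strand, and *Ddit4* lies at chr10:59949669-59951834 on the minus strand. *Sesn2* lies at chr4:132492032-132510501 and *Atf3* at chr1:191170296-191218039, both on the minus strand. The reads come from the 3′ ends of transcripts, so the counts say nothing about isoforms.

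ATF4 with a C/EBP partner binds a composite element, searched here as TGATGNAA on both strands of RefSeq promoters (GRCm38.p6, 250 bases before to 50 bases after the transcript start). The element was found in the promoters of 4 of the 10 genes, and in 3.97% of 32851 promoters of the annotation. These 4 are shown because they are the listed ATF4 targets whose own promoter holds the letters, each as 28 bases read along the strand of its gene, 5′ to 3′, with the match in capitals:
*Asns*, 23 bases before the start, chr6:7693215-7693242 (minus strand): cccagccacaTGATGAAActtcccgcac
*Chac1*, 193 bases before the start, chr2:119351039-119351066 (plus strand): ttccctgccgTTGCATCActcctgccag
*Atf3*, 110 bases before the start, chr1:191183426-191183453 (minus strand): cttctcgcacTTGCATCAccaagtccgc
*Trib3*, 14 bases after the start, chr2:152344029-152344056 (minus strand): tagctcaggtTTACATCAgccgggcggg
The starts are those of RefSeq and differ from the ends of the gene spans given above. Those of *Asns*, *Chac1* and *Atf3* lie inside the span, that of *Atf3* far downstream of its first annotated start, and that of *Trib3* lies outside it. In *Asns* the element reads forward along the gene, and in the other 3 it lies on the opposite strand. The cAMP response element TGACGTCA, which reads the same on both strands, was in 0 of the 11 promoters of these genes and in 1.79% of all promoters. A match is a description of these letters and not a bound site.

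*Atf4* gave UMIs in every class with at least 20 cells, and its level was highest in goblet-like cells. In goblet-like cells it stood at 261, 229 and 256 CPM in the LFD sham, HFD sham and HFD VSG crypts and at 239, 244 and 230 CPM in the LFD sham, HFD sham and HFD VSG villi. Droplets without a cell held 97.1 to 113 CPM of *Atf4* in the 6 libraries. In each library that was above the stem-like and Paneth-like values, and in some above the tuft-like or progenitor-like ones. The part of free RNA in the class values was not tested beyond its subtraction. Goblet-like cells led the classes in 5 of 6 libraries, and EEC-like cells, the hormone-producing enteroendocrine cells, led in the HFD sham crypts at 287 CPM, from 28 UMIs. Among the named classes the order by median over libraries ran from goblet-like (242 CPM) through EEC-like (207), immune-like (181), enterocyte-like (125), early progenitor-like (123), cycling progenitor-like (120) and tuft-like (107) to stem-like (87.8) and Paneth-like cells (80.2). The last place of Paneth-like cells holds on a scale that their own markers mostly fill. Only the ranges of tuft-like and stem-like cells did not meet, and every other class in this order overlapped with the next. Stem-like cells held 75.2 to 88.9 CPM in the 6 libraries, so that each stem-like value lay below each goblet-like value.

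**Figure D1:**
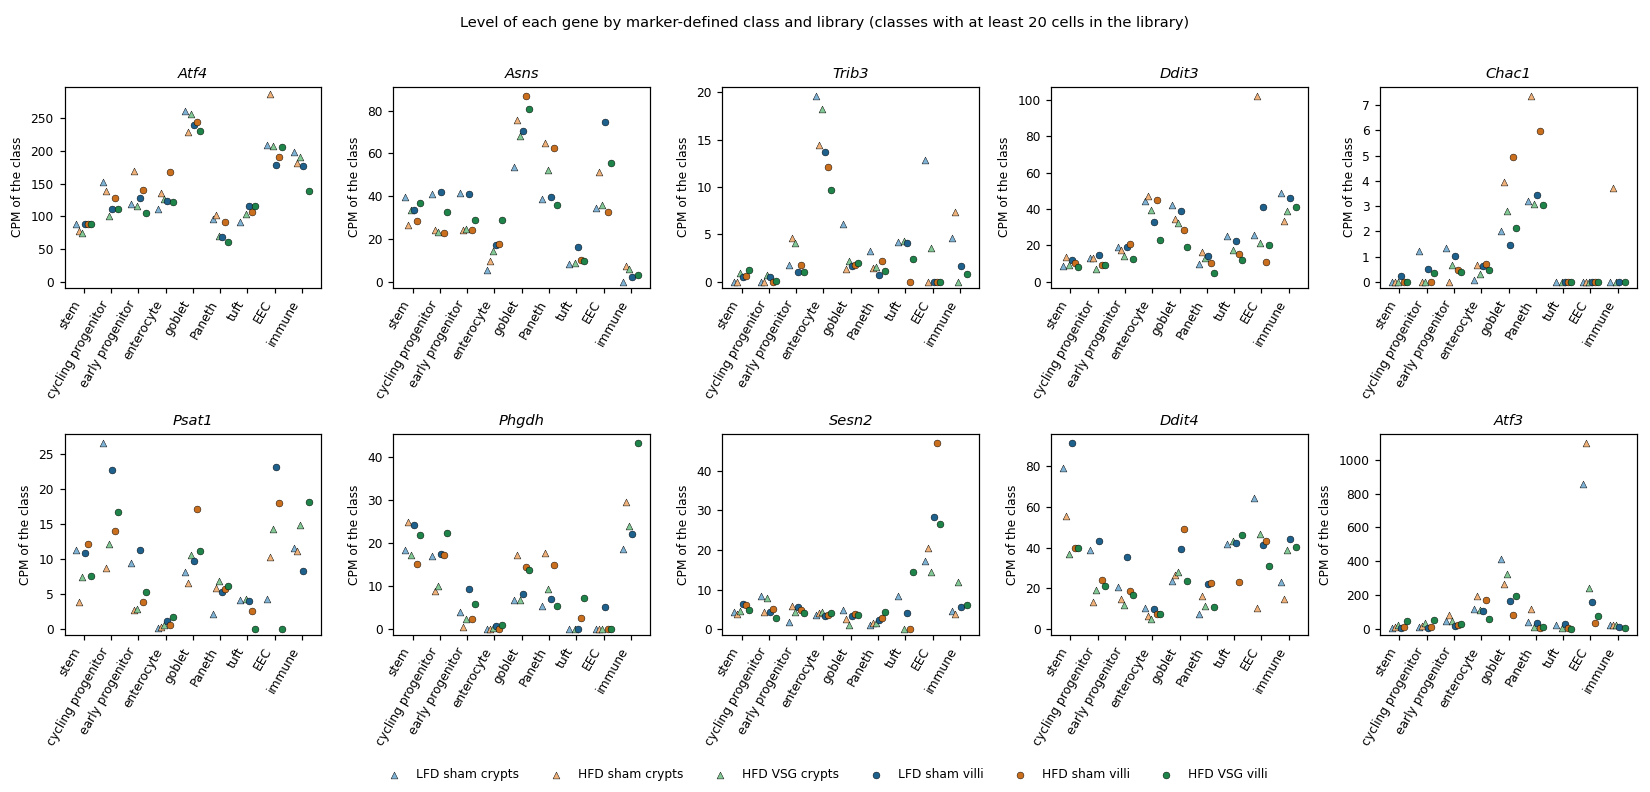
Each panel plots 1 gene, with its level in CPM (scaled UMIs of the class, linear axis) against the marker-defined class, 1 point per library (triangles crypt-labelled, circles villus-labelled, colours for the groups). *Atf4* and *Asns* have their highest median in goblet-like cells, *Trib3* in enterocyte-like cells, and *Ddit4* has its highest points in stem-like cells of the LFD sham libraries and *Atf3* in EEC-like cells of the 2 sham crypt libraries.

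In enterocyte-like cells *Atf4* stood at 111, 136 and 126 CPM in the LFD sham, HFD sham and HFD VSG crypts and at 124, 168 and 122 CPM in the villi, in the same order. The HFD sham library was the highest of the 3 in both compartments. The log2 ratio from LFD sham to HFD sham was 0.29 (0.22 to 0.35) in the crypts and 0.43 (0.37 to 0.50) in the villi, and from HFD sham to HFD VSG it was -0.10 (-0.16 to -0.04) and -0.46 (-0.51 to -0.41). Brackets hold exact 95% limits, which cover counting error only, here and throughout. The median gene of the class lay between -0.03 and 0.10 in these comparisons. Both villus-labelled ratios had the same sign in all 6 clusters of the class with enough UMIs, from 0.28 to 0.74 in HFD sham and from -0.67 to -0.28 in HFD VSG, and the crypt-labelled HFD ratio was above 0 in 6 of 7 clusters. The crypt-labelled *Atf4* ratio to HFD VSG kept its sign in 5 of 7 clusters, which ran from -0.32 to 0.59. In stem-like cells of the villi the 2 ratios of *Atf4* were 0.02 (-0.27 to 0.30) and -0.01 (-0.26 to 0.25).

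*Ddit3* encodes CHOP, a C/EBP-family factor that ATF4 turns on and that is linked to cell death under prolonged stress. Its level was 44.5, 47.0 and 39.3 CPM in enterocyte-like cells of the LFD sham, HFD sham and HFD VSG crypts and 33.1, 45.1 and 23.1 CPM in those of the villi. Droplets without a cell held 51.6, 53.5 and 42.9 CPM of *Ddit3* in the crypts, above these values, and 27.2, 30.8 and 23.2 CPM in the villi. As for *Atf4*, the HFD sham library was the highest and, in the villi, the HFD VSG library the lowest of the 3. The log2 ratio to HFD VSG in the villi was -0.97 (-1.08 to -0.85), with a median gene at 0.02, and lower values were found in 5 of 6 clusters of the class, the exception being cluster 2, led by *Pmp22* and *Clca4a*, at 0.02. Goblet-like cells held 42.0, 34.4 and 32.3 CPM in the crypts and 38.9, 28.7 and 19.0 CPM in the villi, a lower value from LFD sham through HFD sham to HFD VSG in both compartments. The crypt-labelled values rest on 62, 26 and 58 UMIs, and 0 of 3 crypt-labelled *Ddit3* ratios to HFD sham had limits clear of 0. Free RNA held more *Ddit3* than goblet-like cells in every library but the LFD sham villi, and its part was not tested beyond its subtraction. The villus-labelled ratio of goblet-like cells to HFD VSG was -0.59 (-0.98 to -0.21), beside a median gene at -0.26. *Ddit3* was low in stem-like cells (7.85 to 13.4 CPM) and, on the scale that their markers mostly fill, in Paneth-like cells (4.59 to 16.2 CPM). It stood at 33.3 to 48.9 CPM in immune-like and 10.8 to 102 CPM in EEC-like cells.

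*Atf3* encodes a bZIP factor that the integrated stress response and many other acute stimuli switch on within minutes. EEC-like cells held 856, 1096 and 240 CPM in the LFD sham, HFD sham and HFD VSG crypts and 160, 36.1 and 79.8 CPM in the villi. These sums rest on 10 to 200 UMIs of 21 to 44 cells, and the single cell with the most UMIs held 41.7% of those in the HFD VSG villi and 33.9% in the LFD sham villi. Goblet-like cells held 412, 268 and 323 CPM in the crypts and 166, 83.9 and 193 CPM in the villi, so that HFD sham was the lowest of 3 in both compartments. The goblet-like ratio of villus-labelled to crypt-labelled libraries was -1.31 (-1.46 to -1.15) in LFD sham, -1.68 (-1.94 to -1.41) in HFD sham and -0.74 (-0.88 to -0.60) in HFD VSG.

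Enterocyte-like cells went the other way. They held 120, 196 and 114 CPM of *Atf3* in the crypts and 106, 171 and 60.1 CPM in the villi, the highest value in HFD sham in both compartments. The log2 ratio to HFD sham was 0.71 (0.65 to 0.77) in the crypts and 0.70 (0.63 to 0.77) in the villi. From HFD sham to HFD VSG it was -0.79 (-0.84 to -0.73) and -1.51 (-1.58 to -1.45). Droplets without a cell held 61.7 CPM of *Atf3* in the HFD VSG villi, about the level of enterocyte-like cells there, and less than this class in the other libraries. The part of free RNA in these ratios was not tested beyond its subtraction. In the single clusters the HFD ratio of *Atf3* was above 0 in all 7 crypt-labelled clusters with enough UMIs (0.49 to 0.80) and in all 6 villus-labelled ones (0.04 to 2.80), and the VSG ratio was below 0 in 6 of 7 and 5 of 6. Cluster 11, whose leading genes include *Ada* and *Nt5e*, known from the villus tip, held the highest *Atf3* of the enterocyte-like clusters in the 5 libraries where it had at least 20 cells, between 172 and 536 CPM, and had 13 cells in the HFD VSG villi. In the crypts its VSG ratio was 0.08.

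**Figure D2:**
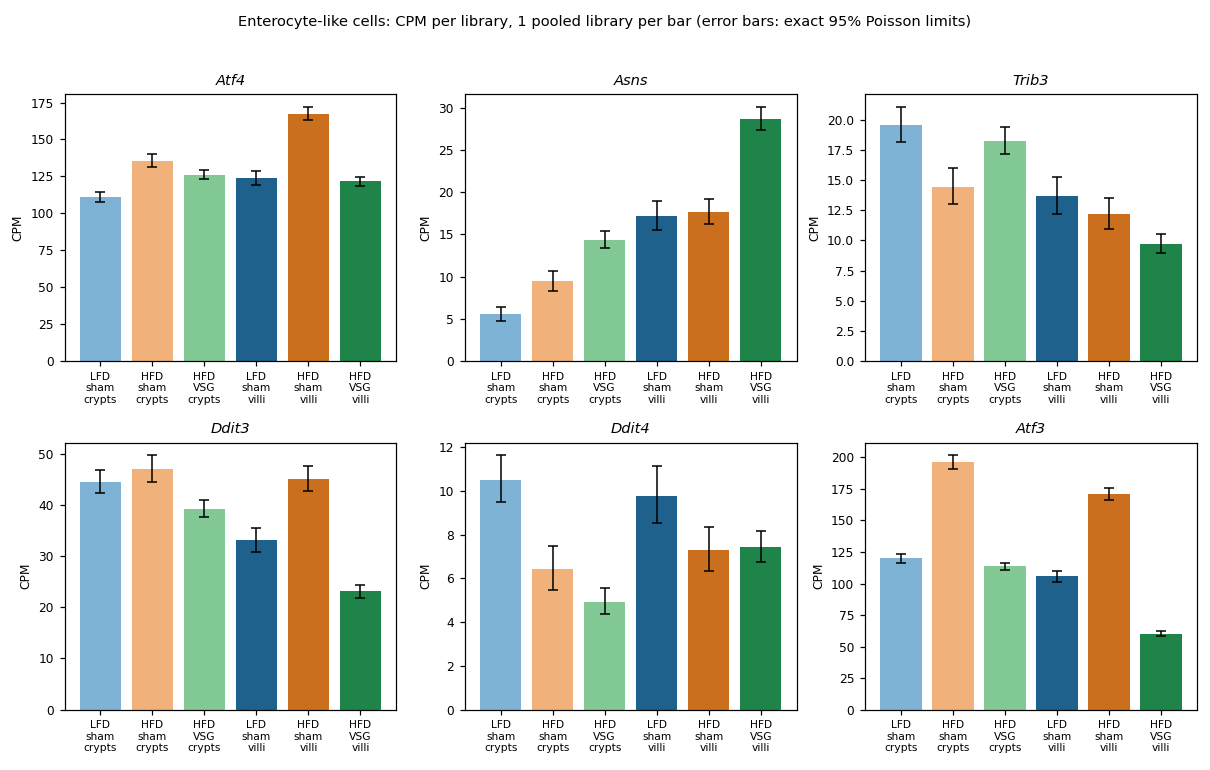
Each panel plots 1 gene in enterocyte-like cells, with 1 bar per pooled library (CPM, linear axis from 0) and exact 95% Poisson limits, which cover counting error only. *Atf4* and *Atf3* are highest in the HFD sham bar of each compartment, *Asns* is highest in HFD VSG and *Ddit3* is lowest in HFD VSG.

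Stem-like cells held little *Atf3*, at 5.66, 15.3 and 23.7 CPM in the crypts (4, 8 and 51 UMIs) and 8.61, 12.7 and 47.2 CPM in the villi (35, 21 and 632 UMIs). Droplets without a cell held 97.1, 105.3 and 89.3 CPM of *Atf3* in the crypts and 54.4, 61.7 and 61.7 CPM in the villi, above every stem-like value, and the part of free RNA in these values was not tested beyond its subtraction. HFD VSG was the highest of 3 in both compartments, opposite to enterocyte-like cells. With cells thinned to 1500 UMIs the crypt-labelled *Atf3* ratio to HFD VSG was -0.53, on few UMIs, where sums under 3 were set to 3. The villus-labelled ratio to HFD VSG was 1.90 (1.27 to 2.60), and in cycling progenitor-like cells, which held 8.39, 12.1 and 54.8 CPM in the villi, it was 2.18 (1.52 to 2.92), both beside a median gene at -0.28. Paneth-like cells held 41.8, 119 and 13.1 CPM in the crypts and 34.6, 5.04 and 9.57 CPM in the villi, where the HFD sham library was the highest of the crypts and the lowest of the villi, on levels that free RNA exceeded in all but the HFD sham crypts.

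The 12 genes listed as dissociation and immediate early genes, among them *Fos*, *Jun*, *Egr1* and *Hspa1a*, were read beside *Atf3*. Their summed level in enterocyte-like cells was 2434, 2709 and 2374 CPM in the crypts and 1878, 2662 and 1605 CPM in the villi, in each compartment the highest in HFD sham. Single genes did not all share that order. From LFD sham to HFD sham 0 of 11 measured were higher and 2 lower in the crypts (median -0.03) and 2 were higher and 2 lower in the villi (median 0.35), where 6.81% and 8.95% of all genes of the class were higher and lower in the crypts and 5.63% and 12.4% in the villi. In HFD VSG against HFD sham 0 of 11 were higher and 2 lower in the crypts (median -0.35) and 0 were higher and 8 lower in the villi (median -0.83), beside 3.28% and 20.1% of all genes lower. In stem-like cells the sum was 884, 959 and 1200 CPM in the crypts and 1010, 1227 and 1852 CPM in the villi, the highest in HFD VSG, while *Hspa1a* stood at 60.3, 77.4 and 6.80 CPM in those of the villi. In the HFD VSG villi 7 of 11 genes of the list were higher and 2 lower in stem-like cells (median 0.84) and as many in cycling progenitor-like cells (median 1.02). Of all genes 7.94% and 6.85% were higher and 35.4% and 35.6% lower in these classes. In Paneth-like cells the sum was 958, 1804 and 549 CPM in the crypts and 869, 430 and 518 CPM in the villi, the same order as *Atf3*. From LFD sham to HFD sham 7 of 7 genes were higher in the Paneth-like cells of the crypts (median 0.82) and 9 of 10 lower in those of the villi (median -1.01), beside 19% of all genes higher and 9.04% lower. In HFD VSG against HFD sham 7 of 7 were lower in the crypts (median -1.72, beside 39.6% of all genes). In the villi 2 of 10 were higher and 3 lower (median 0.12), beside 4.88% and 60.2% of all genes and a median gene at -0.70. In EEC-like cells the sum ranged from 2958 to 10504 CPM. Over the 64 class and library sums with at least 20 cells, log2 CPM of *Atf3* and of the summed list had r = 0.79, and *Atf4* and the list r = 0.80, across points that share libraries and classes. Their part in the *Atf3* and *Atf4* differences was not tested. The cells were isolated with EDTA and dispase, and the preparation of a library cannot be told apart from its group.

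**Figure D3:**
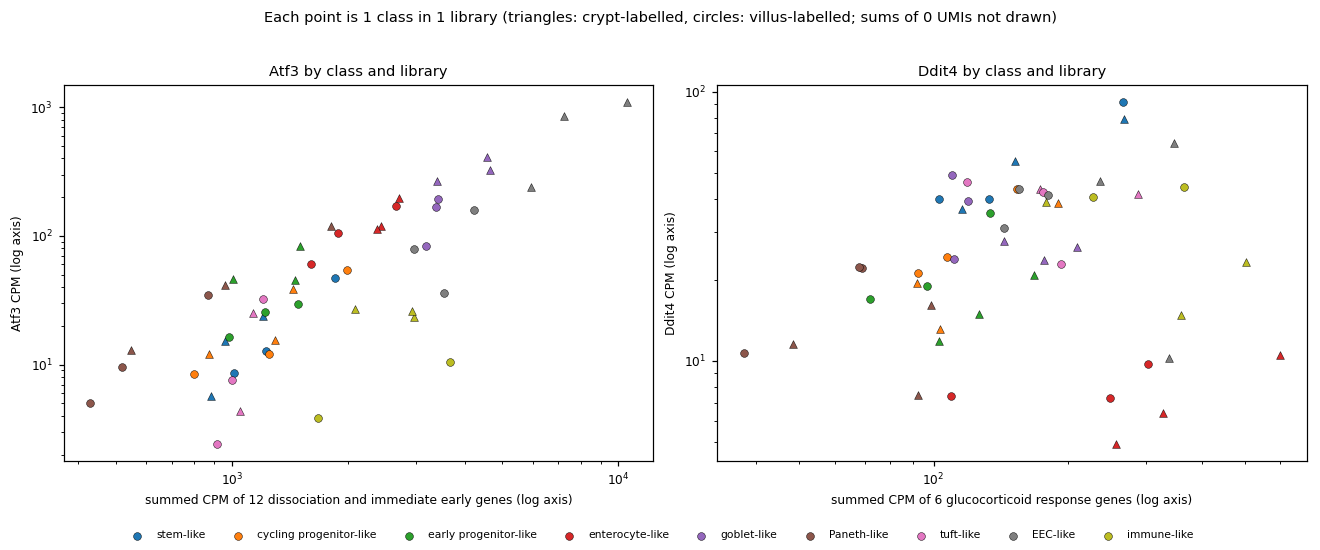
Each point is 1 class in 1 library, with the CPM of *Atf3* against the summed CPM of 12 dissociation and immediate early genes (left) and the CPM of *Ddit4* against the summed CPM of 6 glucocorticoid response genes (right), all axes logarithmic, with sums of 0 UMIs and the 2 unnamed clusters not drawn. *Atf3* runs upward with its list over the points (r = 0.79 over 64 sums, the unnamed clusters included), and *Ddit4* has no such run (r = -0.07), with stem-like cells of the 2 LFD sham libraries at the top.

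*Asns* encodes asparagine synthetase, which makes asparagine from aspartate and glutamine. It was highest in goblet-like cells in 5 of 6 libraries, at 53.5, 75.4 and 68.0 CPM in the LFD sham, HFD sham and HFD VSG crypts and 70.3, 86.8 and 80.8 CPM in the villi. Paneth-like cells came next by the median over libraries, although other classes lay between in both LFD sham libraries and in the HFD VSG villi, with 38.6, 64.8 and 52.3 CPM in the crypts and 39.7, 62.4 and 36.0 CPM in the villi. HFD sham was the highest of 3 in both of these classes and both compartments, but the lowest in EEC-like cells of the villi (74.7, 32.5 and 55.4 CPM). With cells thinned to 1500 UMIs the Paneth-like *Asns* ratio to HFD VSG in the villi turned to 0.068. For Paneth-like cells the ratio to HFD sham was 0.75 (0.08 to 1.42) in the crypts and 0.65 (0.38 to 0.92) in the villi, beside median genes at 0.08 and 0.23. For goblet-like cells it was 0.50 (-0.02 to 1.01) and 0.30 (0.07 to 0.53).

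Enterocyte-like cells held less *Asns*, at 5.52, 9.46 and 14.4 CPM in the crypts and 17.2, 17.7 and 28.7 CPM in the villi. Droplets without a cell held 6.51, 5.45 and 13.7 CPM and 14.99, 17.6 and 29.8 CPM of it, about the same except in the HFD sham crypts, and also the most in HFD VSG. The HFD VSG library was the highest in both compartments and the LFD sham library the lowest, with a first step in the villi that lay within its counting limits. The ratio to HFD sham was 0.78 (0.50 to 1.05) in the crypts and 0.04 (-0.15 to 0.23) in the villi. From HFD sham to HFD VSG it was 0.60 (0.40 to 0.81) and 0.70 (0.56 to 0.85), with median genes at 0.10 and 0.02. With free RNA subtracted the *Asns* ratios to HFD VSG were 0.40 and 0.71. In each group the villus-labelled library held more *Asns* in this class than the crypt-labelled one, by 1.64 (1.39 to 1.89) in LFD sham, 0.90 (0.68 to 1.13) in HFD sham and 1.00 (0.88 to 1.12) in HFD VSG on the log2 scale.

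The enterocyte-like clusters differed widely in *Asns*. Cluster 1, led by *Reg3b* and *Reg3g*, held 20.8, 18.8 and 30.5 CPM in the crypts and 35.7, 30.9 and 31.7 CPM in the villi. Cluster 0, led by *Apoc2* and *Leap2*, held 1.64, 3.79 and 7.18 CPM in the crypts and 5.94, 7.59 and 28.7 CPM in the villi. From HFD sham to HFD VSG in the villi the log2 ratio was 1.92 in cluster 0 and 1.36 in cluster 7, led by *Plb1* and *Fabp6*, and 0.04 and 0.13 in clusters 1 and 6. In the crypts all 4 clusters with enough UMIs were higher in HFD VSG, by 0.69 to 1.15. The ratio to HFD sham in the crypts ran from -0.14 in cluster 1 to 2.24 in cluster 6. Clusters 2 and 11 held at most 6.46 CPM of *Asns* in any library. These 2 clusters made up 22.7% and 10.7% of the enterocyte-like cells of the LFD sham crypts and 4.21% and 0.842% of those of the HFD VSG villi, so the pooled values also carry the makeup of the class.

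In progenitors the diet difference had the other sign. *Asns* stood at 41.6, 24.1 and 24.4 CPM in early progenitor-like cells of the crypts and at 40.9, 24.0 and 28.7 CPM in those of the villi, so that both LFD sham libraries lay above the other four. The ratio to HFD sham was -0.78 (-1.27 to -0.31) and -0.77 (-1.06 to -0.48), and in cycling progenitor-like cells it was -0.76 (-1.89 to 0.25) and -0.86 (-1.42 to -0.34). With cells thinned to 1500 UMIs the cycling progenitor-like *Asns* ratios were 0.45 and 0.041. Both rest on few UMIs, with sums under 3 set to 3. The first follows the 30 and 22 cells of the LFD sham and HFD sham crypts, and neither is read as a change of direction. Stem-like cells held 39.6, 26.7 and 33.4 CPM in the crypts and 33.5, 28.4 and 36.7 CPM in the villi.

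*Phgdh* and *Psat1* encode the first 2 enzymes of serine synthesis from a glycolytic intermediate. They were low in the epithelium, with 1793 and 1450 UMIs in all passing cells, and within the epithelium both stood high in progenitor-like or stem-like cells. *Psat1* stood at 26.5, 8.79 and 12.2 CPM in cycling progenitor-like cells of the crypts and 22.7, 14.0 and 16.7 CPM in those of the villi, with LFD sham the highest of 3 in each compartment. With cells thinned to 1500 UMIs the villus-labelled *Psat1* ratio to HFD sham was 0.85, on few UMIs, where sums under 3 were set to 3. *Phgdh* stood at 18.4, 24.8 and 17.2 CPM in stem-like cells of the crypts and 24.1, 15.1 and 22.0 CPM in those of the villi. Immune-like cells, the lymphocytes between the epithelial cells, held 18.6 to 43.1 CPM of *Phgdh*. Goblet-like cells held 8.12, 6.61 and 10.6 CPM of *Psat1* in the crypts and 9.68, 17.1 and 11.1 CPM in the villi, and Paneth-like cells 2.14 to 6.92 CPM. For *Phgdh* the goblet-like values were 6.77, 17.2 and 6.69 CPM in the crypts and 8.21, 14.5 and 13.7 CPM in the villi. The Paneth-like values were 5.36, 17.7 and 9.23 CPM and 7.05, 14.8 and 5.36 CPM. HFD sham was the highest of 3 in both classes and both compartments. In the crypts that order rests on 10, 13 and 12 UMIs in goblet-like and 5, 12 and 12 UMIs in Paneth-like cells. These sums are too small for the order to be read as a difference. In goblet-like cells of the villi the HFD sham and HFD VSG values, from 50 and 102 UMIs, lay close together. Thinned to 1500 UMIs a cell, the *Phgdh* ratio to HFD sham in goblet-like cells of the villi turned to -0.34 and that to HFD VSG in Paneth-like cells of the villi to 0.53. Both thinned values rest on few UMIs, with sums under 3 set to 3.

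In early progenitor-like cells the ratios to HFD sham were below 0, as for *Asns*, on small sums, while *Phgdh* in cycling progenitor-like cells of the villi stood at 17.5 and 17.2 CPM in LFD sham and HFD sham. In early progenitor-like cells of the villi *Phgdh* gave 65, 15 and 150 UMIs (9.39, 2.39 and 5.79 CPM) and *Psat1* 78, 24 and 139 UMIs (11.3, 3.82 and 5.36 CPM). HFD sham was the lowest of 3 for both. Droplets without a cell had the same lowest library, at 7.77, 2.66 and 9.84 CPM of *Phgdh* and 4.44, 1.60 and 5.91 CPM of *Psat1*, above the *Phgdh* values of both HFD groups and the *Psat1* value of HFD VSG. Their ratios to HFD sham were -1.98 (-2.89 to -1.15) and -1.56 (-2.29 to -0.89). The ratio to HFD VSG was 1.28 (0.51 to 2.15) for *Phgdh* and 0.49 (-0.14 to 1.18) for *Psat1*, beside a median gene at -0.27. Thinned to 1500 UMIs a cell, the *Phgdh* ratios were 0.065 and -0.85, on few UMIs, where sums under 3 were set to 3. The first follows the 343 and 328 cells, and neither is read as a change of direction.

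Enterocyte-like cells were close to lacking both genes. *Phgdh* gave 3, 0 and 14 UMIs in the crypts and 16, 4 and 55 in the villi, and *Psat1* gave 5, 8 and 33 in the crypts and 27, 18 and 99 in the villi. These are at most 0.98 CPM of *Phgdh* and 1.76 CPM of *Psat1*, both in the HFD VSG villi, and at or below the level of droplets without a cell there (9.84 and 5.91 CPM). The villus-labelled ratio to HFD VSG was 2.87 (1.43 to 4.79) for *Phgdh* and 1.54 (0.81 to 2.36) for *Psat1*. The summed early progenitor markers of the same cells stood at 1925 CPM in the HFD sham villi and 5399 CPM in the HFD VSG villi, and the summed enterocyte markers at 91726 and 64161 CPM. The part of less mature cells and of free RNA in these 2 ratios was not tested.

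*Trib3* encodes a pseudokinase that ATF4 and CHOP turn on and that restrains ATF4 and Akt. It was the member most limited to enterocyte-like cells, at 19.6, 14.5 and 18.2 CPM in the LFD sham, HFD sham and HFD VSG crypts and 13.7, 12.2 and 9.72 CPM in the villi. Stem-like cells held 0 to 1.20 CPM (21 UMIs in all), Paneth-like cells 0.75 to 3.22 CPM and goblet-like cells 1.32 to 6.09 CPM. Free RNA alone held 19.0, 15.8 and 15.7 CPM of *Trib3* in the crypts and 8.33, 7.45 and 5.25 CPM in the villi, so the sham crypts of the enterocyte-like cells were close to it, and stem-like, Paneth-like and goblet-like cells lay below it in each library. In the crypts HFD sham was the lowest of 3, with a ratio to HFD sham of -0.44 (-0.62 to -0.26) and to HFD VSG of 0.33 (0.16 to 0.51), and each sign was shared by all 6 clusters with enough UMIs. In the villi the values were lower from LFD sham through HFD sham to HFD VSG, with ratios of -0.17 (-0.39 to 0.06) and -0.32 (-0.52 to -0.13), but the second had the same sign in 2 of 5 clusters only, which ran from -1.21 to 1.04. *Trib3* was lowest where *Atf4* was highest in the crypts, and none of its 4 enterocyte ratios reached 0.5. Clusters 2 and 11 held 16.8 to 34.9 CPM and clusters 1 and 6 held 3.66 to 17.8 CPM, an order opposite to that of *Asns*.

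*Chac1* encodes an enzyme that breaks down glutathione. It gave 260 UMIs in all passing cells, the fewest of the members. Paneth-like cells held the highest level in all 6 libraries, at 3.22, 7.36 and 3.08 CPM in the crypts (3, 5 and 4 UMIs) and 3.45, 5.99 and 3.06 CPM in the villi (23, 19 and 8 UMIs). Goblet-like cells held 2.03, 3.97 and 2.79 CPM in the crypts and 1.47, 4.93 and 2.14 CPM in the villi. HFD sham was the highest of 3 in both classes and compartments, although each limit of the crypt-labelled values contains the others. Droplets without a cell had the same highest library, at 0, 2.18 and 0.22 CPM of *Chac1* in the crypts and 1.11, 3.19 and 0.44 CPM in the villi. Their sums were 0 to 6 UMIs, and the part of free RNA in this order was not tested. In enterocyte-like cells the level was 0.0832 to 0.706 CPM, and in stem-like cells 1 UMI was found in 6 libraries. In EEC-like and tuft-like cells 0 UMIs of *Chac1* were found in every library, with upper exact 95% limits of 8.17 to 37.8 CPM in the EEC-like cells.

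*Sesn2* and *Ddit4* encode sestrin 2 and REDD1, which hold back the growth kinase mTORC1. *Sesn2* stood highest in EEC-like cells in all 6 libraries, at 17.1, 20.5 and 14.3 CPM in the crypts (4, 2 and 4 UMIs) and 28.3, 46.9 and 26.6 CPM in the villi (11, 13 and 12 UMIs). The EEC-like range, from 14.3 CPM upwards, did not meet that of the next class, the immune-like cells, but tuft-like cells reached 14.6 CPM of *Sesn2* in the HFD VSG villi, from 6 UMIs. Enterocyte-like cells were even across libraries, at 3.44, 4.18 and 4.36 CPM in the crypts and 3.34, 3.53 and 4.12 CPM in the villi. Droplets without a cell held 3.00, 4.91 and 3.27 CPM of *Sesn2* in the crypts, close to these values, and 1.67, 2.66 and 1.75 CPM in the villi. In stem-like cells *Sesn2* stood at 3.82 to 6.40 CPM, in goblet-like cells at 1.11 to 4.74 CPM and in Paneth-like cells at 1.07 to 4.21 CPM. All 8 ratios of *Sesn2* with enough UMIs lay between -0.34 and 0.28 with limits that held 0, but the widest limits, in stem-like cells, reached -1.31 and 1.02.

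*Ddit4* stood highest in stem-like cells of the LFD sham libraries. It held 79.2, 55.4 and 36.7 CPM there in the crypts and 91.3, 39.9 and 39.8 CPM in the villi, from 29 to 532 UMIs. Both LFD sham libraries lay above all libraries of HFD mice. The ratio to HFD sham was -0.52 (-1.22 to 0.15) in the crypts and -1.19 (-1.59 to -0.81) in the villi, and the ratio to HFD VSG was -0.59 (-1.23 to 0.07) and -0.01 (-0.38 to 0.39). The same order of LFD sham over HFD sham held in cycling progenitor-like cells, at 38.6, 13.2 and 19.4 CPM in the crypts and 43.4, 24.2 and 21.3 CPM in the villi, and in early progenitor-like cells, at 20.8, 14.9 and 11.9 CPM and 35.5, 18.9 and 16.9 CPM. It also held in enterocyte-like cells, at 10.5, 6.42 and 4.93 CPM and 9.75, 7.29 and 7.43 CPM, where the ratios to HFD sham were -0.71 (-0.98 to -0.45) and -0.42 (-0.70 to -0.14). Droplets without a cell held more *Ddit4* than these enterocyte-like cells in all 6 libraries, at 12.02, 6.55 and 6.31 CPM and 20.5, 11.7 and 15.3 CPM, also with LFD sham the highest. The part of free RNA in the enterocyte-like values was not tested further than by its subtraction, which gave -0.73 for *Ddit4* in the HFD sham crypts. In cycling progenitor-like cells of the crypts the *Ddit4* ratio to HFD sham was 0.45 with cells thinned to 1500 UMIs. That value rests on few UMIs, with sums under 3 set to 3, and follows the 30 and 22 cells. It is not read as a change of direction. EEC-like cells had that order in the crypts, at 64.2 and 10.2 CPM in LFD sham and HFD sham (15 and 1 UMIs), but not in the villi, at 41.2 and 43.3 CPM. Goblet-like and Paneth-like cells did not share it. Goblet-like cells held 23.7, 26.5 and 27.9 CPM in the crypts and 39.1, 49.0 and 23.8 CPM in the villi, and Paneth-like cells 7.51, 16.2 and 11.5 CPM and 22.0, 22.4 and 10.7 CPM.

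*Ddit4* is also a known target of the glucocorticoid receptor, and the summed level of 6 listed genes of that response was lower in both HFD groups than in LFD sham in stem-like and enterocyte-like cells. In stem-like cells it was 267, 153 and 116 CPM in the crypts and 267, 133 and 103 CPM in the villi, and in enterocyte-like cells 600, 327 and 257 CPM and 303, 250 and 110 CPM. From LFD sham to HFD sham 3 of 5 measured genes were lower in enterocyte-like cells of the crypts and 1 of 5 in those of the villi, with 0 higher, beside 8.95% and 12.4% of all genes lower, and *Klf9* stood at 23.4, 24.1 and 28.4 CPM and 18.4, 25.3 and 28.5 CPM. *Fkbp5*, a chaperone gene of that list, stood at 79.6, 3.80 and 1.06 CPM in enterocyte-like cells of the crypts and 39.8, 4.27 and 0.838 CPM in those of the villi. In goblet-like cells the list stood at 177, 210 and 144 CPM and 120, 110 and 111 CPM. Its part in the *Ddit4* differences was not tested.

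Across the members, a pair of gene and class was counted where the 3 crypt-labelled or 3 villus-labelled libraries held 20 or more UMIs on average and no fewer than 20 cells each. This left 31 pairs of 8 genes in the crypts, where *Chac1* and *Psat1* did not pass in any class, and 51 pairs of all 10 genes in the villi. A log2 ratio beyond 0.5 is called higher or lower, a size and not a test. From LFD sham to HFD sham, 7 pairs were higher and 7 lower in the crypts (22.6% each), beside 10.8% and 10.7% of all pairs of gene and class with as many UMIs. In the villi 8 were higher and 17 lower (15.7% and 33.3%), beside 9.18% and 9.23%. From HFD sham to HFD VSG, 4 were higher and 8 lower in the crypts (12.9% and 25.8%), beside 10.9% and 9.12%, and 12 were higher and 13 lower in the villi (23.5% and 25.5%), beside 11.6% and 33.2%. The 12 pairs beyond 0.5 in the HFD VSG crypts became 7 without the cell with the most UMIs of the gene, and thinning to 1500 UMIs left 6, 9, 3 and 6 pairs in the 4 comparisons.

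The medians of the pairs for HFD sham and HFD VSG were 0.09 and -0.15 in the crypts and -0.03 and -0.01 in the villi, so the genes did not share 1 direction in any comparison. Of the 17 lower villus-labelled pairs of HFD sham, 3 each belonged to *Asns*, *Atf3*, *Ddit4*, *Phgdh* and *Psat1* and 2 to *Ddit3*, and the same comparison held 4 higher pairs of *Atf3*. *Atf4*, *Chac1*, *Trib3* and *Sesn2* had 0 lower pairs there. In the HFD VSG villi the median gene lay at -0.28 in stem-like, -0.28 in cycling progenitor-like, -0.27 in early progenitor-like, -0.26 in goblet-like and -0.70 in Paneth-like cells. With scaling to the median of ratios in place of total UMIs, 19 pairs were higher and 5 lower in that comparison, beside 23.1% and 17.8% of all pairs, so its split between directions depends on the scaling.

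**Figure D4:**
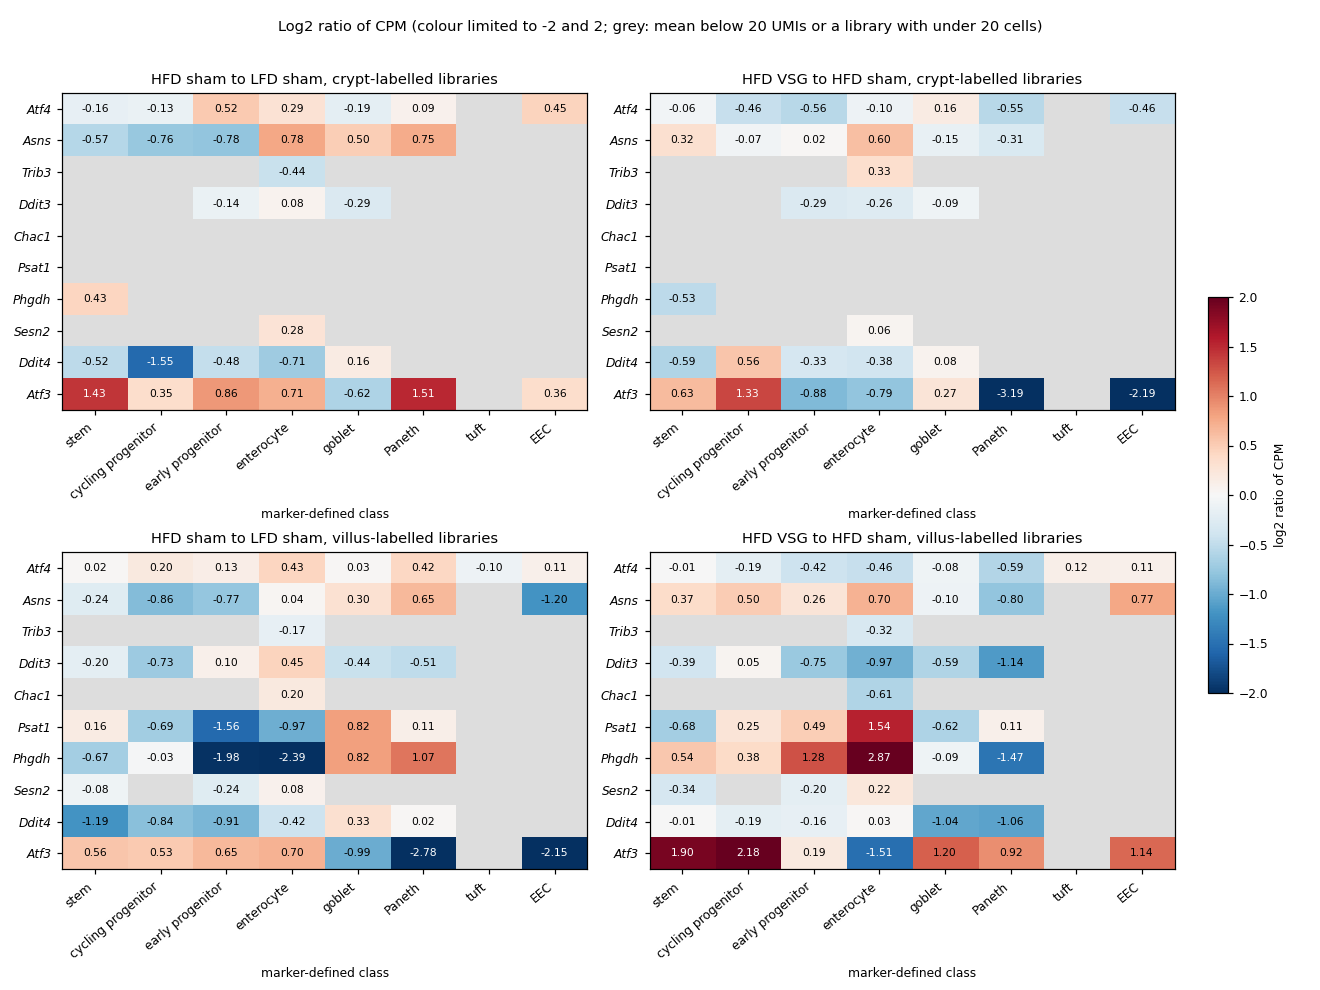
Each panel is 1 comparison, with genes in rows and marker-defined classes in columns, and colour and printed number give the log2 ratio of CPM (colour limited to -2 and 2, grey for pairs under the UMI or cell minimum). In the HFD sham villi *Asns*, *Phgdh*, *Psat1* and *Ddit4* are blue in early progenitor-like cells while *Atf4* and *Atf3* are red in enterocyte-like cells, and in the HFD VSG villi *Ddit3* and *Atf3* are blue and *Asns*, *Psat1* and *Phgdh* red in enterocyte-like cells.

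The wider pathway was read from a list of 52 other genes, all found among the features. In enterocyte-like cells, 40 had a mean of at least 20 UMIs in the crypts and 43 in the villi. From LFD sham to HFD sham, 9 were higher and 1 lower in the crypts, with a median of 0.26 beside 0.00 for all genes of the class, of which 6.81% were higher and 8.95% lower. In the villi 5 were higher and 4 lower, with a median of 0.02 beside -0.03, and 5.63% of all genes were higher and 12.4% lower. The highest crypt-labelled ratios were those of *Cth*, which makes cysteine from cystathionine (29.9 to 59.2 CPM, 0.98), *Atf5*, a relative of *Atf4* (2.91 to 5.66 CPM, 0.96), and *Shmt2*, a mitochondrial one-carbon enzyme (0.832 to 1.52 CPM, 0.87). The lowest were *Herpud1*, a gene of protein degradation at the endoplasmic reticulum (215 to 131 CPM, -0.71), *Xpot*, an exporter of tRNA (29.5 to 22.6 CPM, -0.38), and *Eif2ak2*, the eIF2 kinase of double-stranded RNA (51.0 to 41.5 CPM, -0.30). In the villi *Cth* was again among the 3 highest (61.8 to 93.0 CPM, 0.59), with *Gdf15*, a secreted stress hormone (1.41 to 3.73 CPM, 1.41), and *Slc6a9*, a glycine transporter (1.58 to 2.99 CPM, 0.92). The 3 lowest there were *Eif2b3*, a subunit of the eIF2 exchange factor (2.24 to 0.975 CPM, -1.20), *Slc1a5*, a glutamine transporter (2.72 to 1.41 CPM, -0.95), and *Eif2ak3*, the eIF2 kinase PERK (14.6 to 9.82 CPM, -0.58).

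From HFD sham to HFD VSG, 6 of the 40 were higher and 5 lower in the crypts, with a median of 0.10 beside 0.10 for all genes, of which 8.39% were higher and 3.28% lower. In the villi 13 of the 43 were higher and 9 lower, with a median of 0.10 beside 0.02, close to the 25.4% and 20.1% of all genes. In the crypts *Mthfd2*, a mitochondrial folate enzyme (1.75 to 3.65 CPM, 1.06), *Slc6a9* (2.28 to 4.55 CPM, 1.00) and *Gars*, the glycine tRNA synthetase (27.2 to 43.9 CPM, 0.69), were the highest. *Cth* (59.2 to 28.0 CPM, -1.08), *Gdf15* (2.93 to 1.48 CPM, -0.99) and *Ppp1r15a*, which brings a phosphatase to eIF2 (19.2 to 12.6 CPM, -0.61), were the lowest. In the villi *Eif2b3* (0.975 to 4.40 CPM, 2.17), *Eif4ebp1*, a repressor of cap-dependent translation (10.9 to 25.7 CPM, 1.24), and *Slc1a5* (1.41 to 2.82 CPM, 1.00) were the highest. *Nupr1*, a stress-induced nuclear protein (4.10 to 0.981 CPM, -2.06), *Gdf15* (3.73 to 1.62 CPM, -1.20) and *Ppp1r15b*, the constitutive phosphatase subunit (98.6 to 51.8 CPM, -0.93), were the lowest. Grouped by role, 4 of 6 measured enzymes of amino acid and one-carbon metabolism were higher and 0 lower in the HFD VSG villi (median 0.61), 3 of 5 transporters were higher and 1 lower (0.64), and both phosphatase subunits were lower (-0.74), beside the same shares of all genes, 25.4% higher and 20.1% lower. Of 7 transcription, secreted and other factors, *Eif4ebp1* and *Herpud1* among them, 2 were higher and 3 lower (-0.40), and of 10 genes of the eIF2 group 3 were higher and 2 lower (0.17). In the HFD VSG crypts 3 of 5 enzymes were higher and 1 lower (0.52), and 1 of 2 phosphatase subunits was lower (-0.41). The transporters did not repeat there, with 1 of 5 higher and 0 lower (-0.03), beside 8.39% of all genes higher and 3.28% lower. The early progenitor markers were higher and the enterocyte markers lower in the cells of the HFD VSG villi too, as given for *Phgdh* and *Psat1*, and their part was not tested.

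In Paneth-like cells of the villi 20 of 42 genes of the list were higher and 2 lower in HFD sham (median 0.49 beside 0.23 for all genes), where 27.4% of all genes were higher and 9.04% lower. In HFD VSG 2 were higher and 33 lower (median -0.94 beside -0.70), where 4.88% of all genes were higher and 60.2% lower. Both splits depend on the scaling, since the median of ratios moved the ratios by -0.24 and 0.68 and gave 790 higher and 1041 lower of all 5982 genes in HFD sham and 1510 and 1526 in HFD VSG. These cells also differed in depth and quality, with medians of 52167, 6877 and 32254 UMIs and of 1.46%, 5.20% and 1.94% mitochondrial UMIs in the LFD sham, HFD sham and HFD VSG villi, and 10468, 33960 and 6989 CPM of the damaged-droplet genes, whose part was not tested. The 20 higher genes in HFD sham were 4 of 5 enzymes (median 0.96), 4 of 6 transporters (0.94) and 8 of 13 genes of tRNA charging and export (0.67), with 2 transcription, secreted and other factors, 1 phosphatase subunit and 1 gene of the eIF2 group, in the class where *Asns* and *Phgdh* were also higher. Stem-like cells of the villi had medians of 0.07 (beside 0.03) and -0.45 (beside -0.28), and goblet-like cells 0.07 (beside -0.02) and -0.37 (beside -0.26). Of the 10 listed chaperones of the endoplasmic reticulum, which mark the unfolded protein response, 4 were lower and 0 higher in enterocyte-like cells of the HFD sham villi (median -0.46), beside 12.4% of all genes lower, and 1 was lower and 0 higher in those of the HFD sham crypts (median -0.34), a share near the 8.95% of all genes. In enterocyte-like cells of the HFD VSG villi 1 was higher and 3 lower, beside 25.4% and 20.1% of all genes.

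For each member with enough UMIs, the genes with the most similar levels over the 64 class and library sums were sought among 9807 genes. They were *Fos* (r = 0.88), *Trib1* (0.85) and *Fosb* (0.84) for *Atf3*, *Slc38a10* (0.83) and *Stx5a* (0.83) for *Atf4*, and *Klf6* (0.87), *Jak2* (0.83) and *Gramd1b* (0.82) for *Ddit3*. For *Phgdh* they were *Cad* (0.90), *Slc1a5* (0.87) and *Snhg15* (0.86), for *Psat1* *Slc7a1* (0.88), *Vars* (0.87) and *Bcl7a* (0.87), and for *Asns* *Galnt3* (0.82), *Kif21a* (0.81) and *Sypl* (0.80). For *Trib3* they were *Slc43a2* (0.87), *Akr1b7* (0.87) and *Asah2* (0.87), for *Ddit4* *Nedd4* (0.87), *Zfp664* (0.86) and *Mlh3* (0.86), and for *Sesn2* *Rnf130* (0.77), *Ubl3* (0.75) and *Cck* (0.74). Among the members, *Phgdh* and *Psat1* were the most alike (0.82), followed by *Ddit4* and *Psat1* (0.69) and *Atf4* and *Ddit3* (0.69), and *Phgdh* and *Trib3* the least (-0.71). These values describe sums that share libraries, depth and cell classes.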

How the data were processed

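Single cells of the jejunal epithelium were captured with 10x Genomics 3′ chemistry. The authors deposited UMI counts per gene and barcode, made with Cell Ranger 6.0.0 on mm10 per the submitters' processing notes, as a filtered and an unfiltered matrix per library. The filtered counts are the values used here, and unfiltered droplets under 100 UMIs gave the level of free RNA.

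Cells with at least 750 genes and at most 20% mitochondrial UMIs were kept. Doublets were scored against 2 simulated doublets per barcode over 20 neighbours, and 0.8% per 1000 barcodes were removed (482 to 1154 per library). Free RNA was not subtracted in the main values. The 6 libraries were joined in R 4.3.3 with Seurat 5.3.0 (sctransform 0.4.2, 2000 variable genes, 30 components, resolution 0.4), which gave 19 clusters. A marker counted for a cluster at 25% or more of its level in the highest cluster and in at least 10% of cells. A name needed over 50% and at least 3 of the markers of a class, and the 10 leading genes were not to go against it. These naming thresholds were chosen with the clusters in view. Cluster 3, whose leading genes mix those of lymphocytes (*Gzma*, *Ccl5*) with those of damaged droplets, and cluster 5, shallow and led by Paneth genes, stayed unnamed.

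UMIs were summed per class and library and divided by the summed total. Sums under 3 UMIs were set to 3 for log2 ratios. Levels have exact Poisson and ratios conditional binomial limits (95%, scipy 1.17.1), which cover counting error only. With 1 library per condition and compartment, cells are not replicates and no test was made. The summed step was tested on simulated data with 200 changed genes. Poisson counts were drawn from the pooled proportions of enterocyte-like cells, with planted log2 changes of size 1 up or down. They held no spread between cells, mice or preparations, so the shares below follow from that setting. They do not describe the error in these data or in smaller classes. In enterocyte-like cells 98% to 99% of them lay beyond 0.5 in the 4 comparisons. Of the unchanged genes 3.52% and 2.59% did from LFD sham to HFD sham and from HFD sham to HFD VSG in the crypts (11101 genes), and 3.60% and 2.07% in the villi (11334 genes). Promoters came from RefSeq.

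All 10 genes were named with values, in full for some classes and as ranges or medians for others, and not in every class. Of the pathway list, the 3 highest and 3 lowest ratios of each comparison in enterocyte-like cells were named. The genes and lists were chosen with earlier results of these data known. Alternatives changed the filters, doublets, free RNA, scaling, depth, resolution and UMI minimum. The authors' free RNA and doublet tools were not used here. For each gene with enough UMIs, the 3 genes of most similar levels were sought, and 1 of them is not reported here.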

Additional observations from a re-analysis of the deposited data

Results flagged for a closer look

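In 4 cases the 2 compartments gave ratios beyond 0.5 in opposite directions for the same comparison, each resting on 1 library a side, and the difference between compartments was not tested. *Atf3* in EEC-like cells had a log2 ratio from HFD sham to HFD VSG of -2.19 in the crypts and 1.14 in the villi. In Paneth-like cells the same comparison of *Atf3* gave -3.19 in the crypts and 0.92 in the villi, and the ratio from LFD sham to HFD sham gave 1.51 and -2.78. The value of 0.92 rests on 16 and 25 UMIs, and its counting limits held 0. The summed dissociation and immediate early genes had the same order in these cells, at 958, 1804 and 549 CPM in the crypts and 869, 430 and 518 CPM in the villi, and their part was not tested. The Paneth-like cells also differed in depth. Their median UMIs were 2910.5, 18566 and 40730 in the LFD sham, HFD sham and HFD VSG crypts and 52167, 6877 and 32254 in the villi. The part of depth was not tested. *Phgdh* in stem-like cells had a ratio from HFD sham to HFD VSG of -0.53 in the crypts and 0.54 in the villi. These rest on 13 and 37 UMIs and on 25 and 294 UMIs, and the counting limits of both held 0.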

How the results depend on the processing

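No paired analysis was possible because the groups compared have 1 library per compartment, and the 2 compartments of a group come from the same pooled mice and are no replicates, so leaving out replicates could not be done either. The difference between compartments, which pairs 2 libraries in each of 3 groups, was given as values and not tested. The number of pairs beyond 0.5 depended on depth and on the UMI minimum. From LFD sham to HFD sham it was 14 of 31 pairs in the crypts and 25 of 51 in the villi, and from HFD sham to HFD VSG 12 and 25. With cells thinned to 1500 UMIs these became 6, 9, 3 and 6, since few pairs kept 20 UMIs, and with no minimum of UMIs 40, 40, 37 and 41. With a mean of at least 50 UMIs the crypts gave 8 and 7, and leaving out the cell with the most UMIs of the gene gave 7 in the HFD VSG crypts.

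Of the log2 ratios beyond 0.5, directions turned in 25 values under an alternative, and the cause was not tested. Smaller ratios turned too, such as those of single clusters for *Trib3* in the HFD VSG villi (up to 1.04), *Atf4* in the HFD VSG crypts (up to 0.59) and *Ddit3* in the HFD sham villi (down to -0.32). *Atf3* from LFD sham to HFD sham in the villi turned to -0.47 with doublets kept and to -1.18 with free RNA subtracted in stem-like cells, to -1.46 with free RNA subtracted in cycling progenitor-like cells and to -0.19 at resolution 0.8 in early progenitor-like cells. *Chac1* in enterocyte-like cells of the HFD VSG villi turned to 1.19 with free RNA subtracted and to 0.34 when thinned, and *Atf4* in Paneth-like cells there to 0.088 with median-of-ratios scaling. Thinning turned *Atf3* in stem-like cells of the HFD VSG crypts to -0.53. In cycling progenitor-like cells the thinned values given next rest on few UMIs, with sums under 3 set to 3. They are not read as changes of direction. Thinning turned *Asns* there in HFD sham to 0.45 in the crypts and 0.041 in the villi. It turned *Ddit4* there to 0.45 and -1.40 in the HFD sham and HFD VSG crypts. It turned *Ddit3* and *Psat1* there to 0.85 each in the HFD sham villi. It also turned *Phgdh* in early progenitor-like cells of the villi to 0.065 in HFD sham and -0.85 in HFD VSG, in goblet-like cells of the HFD sham villi to -0.34 and in Paneth-like cells of the HFD VSG villi to 0.53, where *Asns*, *Ddit3* and *Ddit4* turned to 0.068, 1.05 and 0.40. Taken alone, an alternative chosen after seeing the data, cluster 1 gave -0.14 for *Asns* in the HFD sham crypts, cluster 11 gave 0.081 for *Atf3* in the HFD VSG crypts, and cluster 2 gave 0.12 for *Atf3* and 0.017 for *Ddit3* in the HFD VSG villi.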
